A study of Mus musculus with 18 samples.

Results

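Matricellular proteins are secreted into the extracellular matrix, where they act on cell adhesion and on growth factors more than as load-bearing fibres. The 9 genes described here are Postn (periostin), Tnc (tenascin C), Tgfbi (transforming growth factor beta induced), Sparc, Sparcl1 and Smoc2 (SPARC and some of its relatives), Spp1 (osteopontin), Cilp (cartilage intermediate layer protein) and Comp (cartilage oligomeric matrix protein). They were chosen by name, with earlier results of these data known, by summing the deposited transcript values per gene symbol in both tables. All 9 were found in both tables, among 17267 gene symbols in all. All 9 passed the filter on low counts in both tables, Comp in that of undifferentiated cells only through the group from mice fed a high-fat diet. Because the choice rested on these values, their levels and changes between groups are given as a description with no p-value. Calls of the 9 genes are counted below beside those of all genes, and nothing is read from them.

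The cells were wild-type mouse primary preadipocytes, the precursors of fat cells, of epididymal white adipose tissue, and poly(A) RNA was sequenced in 18 libraries of 6 groups with 3 replicates each. In undifferentiated cells of control diet (CD) mice there was a mock group and a group given the cytokine TGF-b1. A further group was given TGF-b1 plus SB431542, which blocks the kinase of the type I TGF-b receptor. No group was given SB431542 alone, so its action on added TGF-b1 and its other effects cannot be told apart. The fourth group was undifferentiated mock cells from mice fed a high-fat diet (HFD). The other two groups were first sorted with an antibody to CD49e, which is integrin alpha 5, the product of Itga5, into high and low cells and then put through adipogenic differentiation. Their diet, the age of the mice, and the doses and times of the agents were not stated in the labels. The labels do not say whether replicates came from separate mice or cultures, so errors and p-values cover the spread among these libraries alone, and that spread may be technical.

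In connective tissue, TGF-b signals through a receptor kinase and Smad proteins to raise matrix genes, and several matricellular genes are classical responders. Periostin and the TGFBI protein are built of repeated fasciclin domains and bind integrins and collagens. Tenascin C is a large hexamer that appears in wounds, embryos and inflamed tissue and is made in many splice forms. SPARC binds collagen and is secreted by many fibroblasts, whereas osteopontin is a ligand of integrins and CD44 made by activated macrophages, bone cells and others.

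Libraries held between 11154426 and 17288580 counts. Every pair of libraries within a group differed slightly beyond sampling noise (chi-square per degree of freedom 1.15 to 1.25 over 18 pairs). The preadipocyte and fibroblast markers (12 of 12 with counts) summed to between 1573 and 4144 CPM (counts scaled to library size) in the libraries. The undifferentiated groups also held macrophage, endothelial and mesothelial markers, whose sums are given beside the results they move with. Adipocyte markers summed to between 262 and 4340 CPM in undifferentiated and between 7204 and 8275 CPM in differentiated libraries, with Lep at 0 in all groups and Ucp1 at 0 in the undifferentiated ones. Macrophage markers summed to between 247 and 332 CPM in differentiated libraries, most of it Gpnmb, with Fcgr1 and Ptprc at 0. The 8 lymphocyte markers summed to at most 0.515 CPM.

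The genes covered a wide span of abundance. Per transcript length, in TPM (transcript counts over length, scaled to a common sum), Sparc was the highest of the 9 in all 6 groups and Postn the second. In CD mock cells, Sparc stood at 6879 ± 26.9 TPM (SD, n = 3), Postn at 974 ± 13.5 TPM and Tnc at 171 ± 0.538 TPM. Spp1 stood at 103 ± 3.67, Sparcl1 at 101 ± 3.04, Smoc2 at 92.8 ± 1.47, Tgfbi at 19.6 ± 1.31 and Cilp at 8.87 ± 0.162 TPM. The ranges of Spp1 and Sparcl1 overlapped in these libraries, so their order is not fixed by the spread. Comp was the lowest at 0.23 ± 0.118 TPM in CD mock cells, on 2 to 4 counts per library, while in differentiated Itga5-Low cells it stood above Sparcl1, at 155 ± 4.81 against 32.2 ± 1.49 TPM. Values below are in CPM, scaled within each table by the trimmed mean of M-values (TMM). The tables were scaled separately, so a level in differentiated cells set beside one in undifferentiated cells is a description only.

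**Figure D1:**
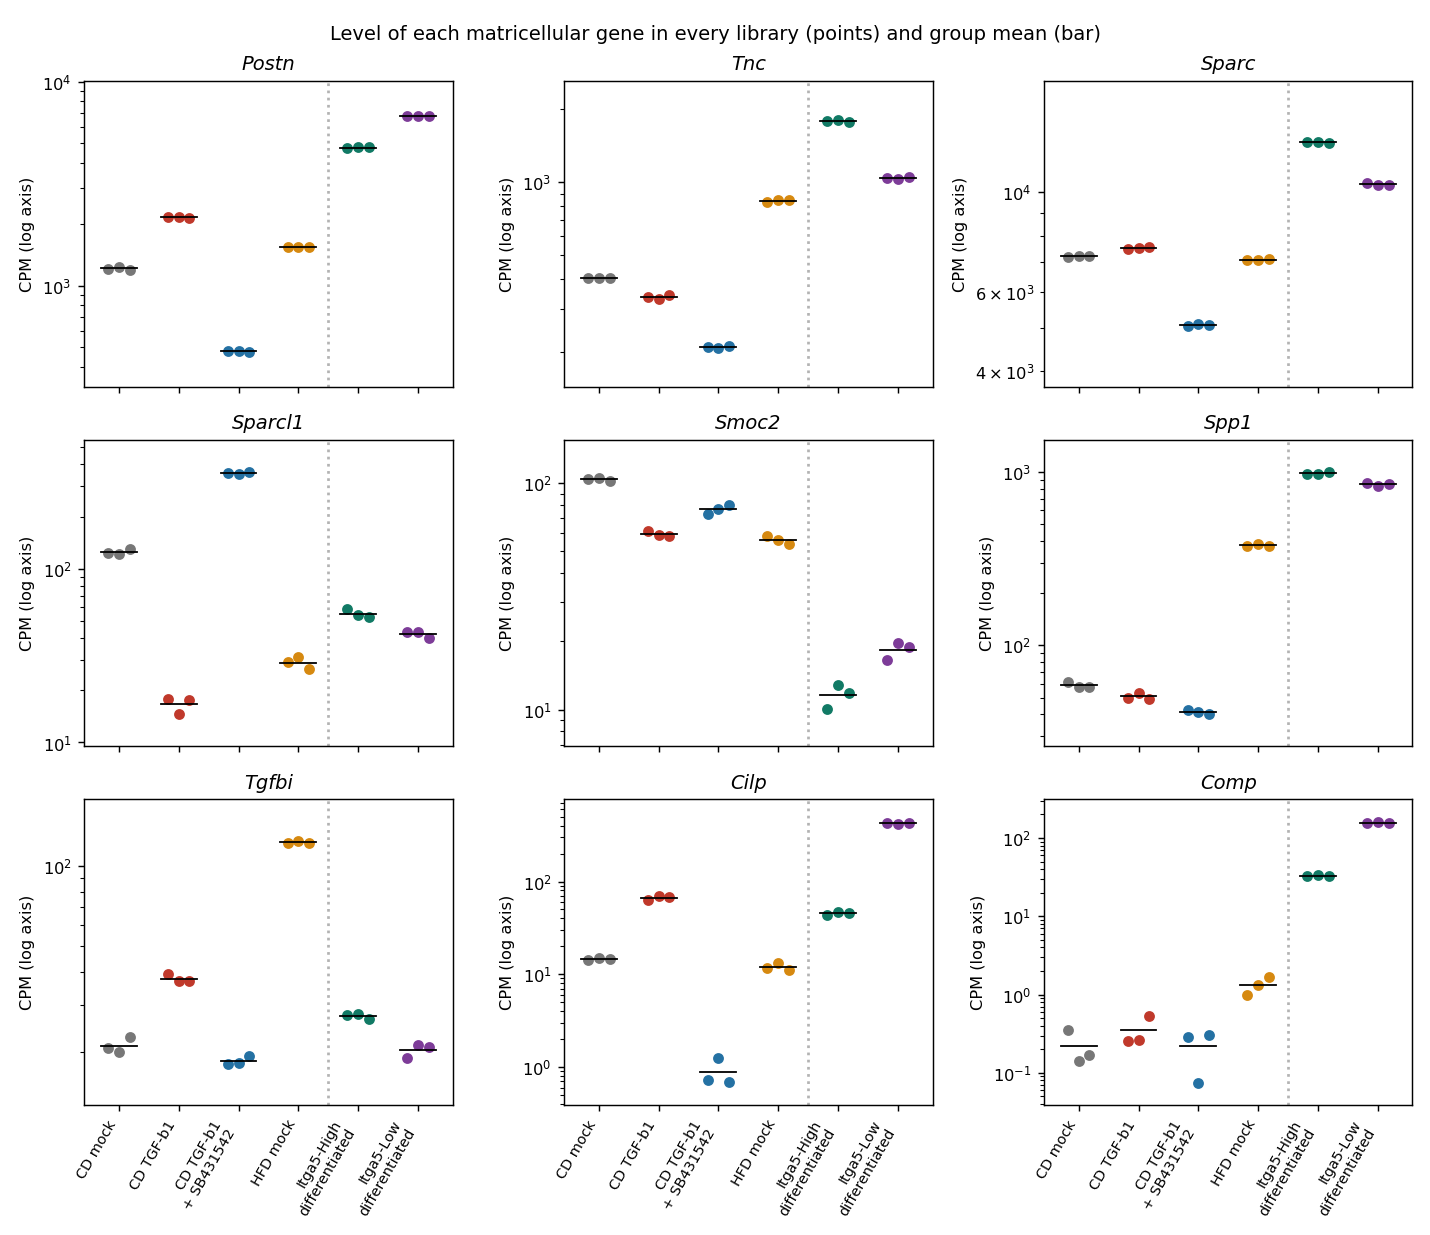
CPM (log axis) of the 9 genes in all 18 libraries, with points for libraries, bars for group means and a dotted line between the separately scaled tables. Libraries of a group lie close together except for Comp in undifferentiated cells, which rests on 1 to 24 counts per library, and Cilp under TGF-b1 with SB431542, which rests on 9 to 17.

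Periostin mRNA was higher with TGF-b1, far lower when SB431542 was added, and highest in differentiated cells. CD mock libraries held 1213, 1232 and 1199 CPM of Postn. TGF-b1 libraries held 2168, 2170 and 2154 CPM, and libraries with TGF-b1 and SB431542 held 479, 480 and 474 CPM. The 3 groups did not overlap, and the inhibitor group lay below mock as well as below TGF-b1. Postn was 1.78-fold higher with TGF-b1 than in mock (log2 change 0.83 ± 0.01 SE) and 4.53-fold lower with SB431542 added than with TGF-b1 alone (log2 change -2.18 ± 0.01). HFD mock libraries held 1540, 1541 and 1555 CPM, 1.27-fold above CD mock. Differentiated cells held 4737, 4763 and 4770 CPM in Itga5-High and 6766, 6786 and 6762 CPM in Itga5-Low libraries, so that Itga5-High lay 1.42-fold below Itga5-Low with no overlap.

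Tgfbi, the closest relative of Postn in the set, shares its gene structure: exons 2 to 14 of the 2 genes, taken in order, have the same length in 9 of 13 places and differ by at most 6 bases in the others. Its level shared the direction of Postn under TGF-b1 but not in the sorted cells. Tgfbi stood at 20.7, 20 and 22.7 CPM in CD mock, at 39.3, 36.9 and 36.9 CPM with TGF-b1, and at 18, 18.2 and 19.4 CPM with SB431542 added. The log2 change was 0.84 ± 0.06 for TGF-b1 against mock and -1.02 ± 0.06 for SB431542 added against TGF-b1 alone, so the inhibitor group stood just under mock. The largest value was that of HFD mock, at 122, 125 and 122 CPM, 5.84-fold above CD mock. Itga5-High libraries held 27.6, 27.8 and 26.7 CPM and Itga5-Low libraries 18.9, 21.2 and 20.9 CPM, the opposite order to Postn.

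Tenascin C, which loosens adhesion of cells to fibronectin, did not follow Postn under TGF-b1. CD mock libraries held 404, 405 and 405 CPM of Tnc, TGF-b1 libraries 337, 331 and 342 CPM, and libraries with SB431542 added 210, 208 and 211 CPM. Each step was downward, with a log2 change of -0.26 ± 0.02 and then of -0.69 ± 0.02. Scaled by total counts the steps were -0.41 for Tnc with TGF-b1 and -0.43 for Tnc with SB431542 added. HFD mock libraries held 828, 844 and 850 CPM, 2.08-fold above CD mock. The Tnc forms described below differ in length, which CPM does not correct for. Per transcript length and without TMM, Tnc stood at 171 TPM in CD mock and 121 TPM with TGF-b1. It stood at 92.5 TPM with SB431542 added and at 321 TPM in HFD mock. Itga5-High libraries held 1795, 1809 and 1779 CPM and Itga5-Low libraries 1047, 1034 and 1050 CPM. Tnc was thus higher in the 2 groups labelled HFD and Itga5-High than in the group each was compared with, with no overlap of libraries.

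SPARC, a collagen-binding protein, was the steadiest of the 9, with a 2.55-fold span over the 6 group means. Sparc stood at 7180, 7210 and 7222 CPM in CD mock and at 7471, 7515 and 7531 CPM with TGF-b1. The groups did not overlap, but the log2 change of 0.06 ± 0.01 turned to -0.09 when libraries were scaled by total counts. SB431542 with TGF-b1 left 5031, 5090 and 5056 CPM, 1.48-fold below TGF-b1 alone (log2 change -0.57 ± 0.01, and -0.31 when scaled by total counts). HFD mock, at 7052, 7067 and 7095 CPM, lay 1.02-fold below CD mock (log2 change -0.03 ± 0.01, and -0.11 when scaled by total counts). Itga5-High libraries (12932, 12936 and 12860 CPM) lay 1.24-fold above Itga5-Low libraries (10465, 10370 and 10340 CPM).

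Sparcl1 (hevin), the nearest paralog of Sparc, had the opposite direction to Postn in each of the 5 comparisons. It also did to Cilp in all but HFD mock against CD mock, where both were lower. It stood at 124, 122 and 129 CPM in CD mock and at 17.7, 14.5 and 17.5 CPM with TGF-b1, 7.48-fold lower. With SB431542 added it stood at 358, 352 and 360 CPM, 21.4-fold above TGF-b1 alone and 2.86-fold above mock. HFD mock libraries held 29.1, 31 and 26.4 CPM, 4.35-fold below CD mock. Itga5-High cells (58.5, 54.2 and 53 CPM) lay above Itga5-Low cells (43.5, 43 and 39.8 CPM).

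Endothelial markers, genes of vessel lining cells, moved beside Sparcl1 in undifferentiated cells. With TGF-b1, 9 of 11 were lower and 2 higher, where 34.2% of all genes tested were lower. With SB431542 added, 9 were higher and 2 lower, where 41.4% of all genes were higher. In HFD mock 10 were lower and 1 higher, where 26.6% of all genes were lower. The endothelial sum was between 482 and 500.2 CPM in CD mock and between 253 and 256 CPM with TGF-b1. It was between 975 and 1001 CPM with SB431542 added, and between 193 and 200.4 CPM in HFD mock. In differentiated cells the sum was between 51.8 and 56.4 CPM in both groups with none of the 11 at 0, and Sparcl1 stood above its level with TGF-b1. Mesothelial markers stood at 2644 to 2679, 732 to 748, 2372 to 2379 and 687 to 698 CPM in the same order of undifferentiated groups. Adipocyte markers summed to 1449 to 1473 CPM in CD mock, 262 to 273 CPM with TGF-b1, 4297 to 4340.5 CPM with SB431542 added and 1086 to 1102 CPM in HFD mock. Preadipocyte and fibroblast markers summed to 3139 to 3157, 1573 to 1590.0, 4131 to 4144 and 2423 to 2449 CPM in that order. The adipocyte and preadipocyte sums had the order of Sparcl1 over these groups, while the endothelial and mesothelial sums were lowest in HFD mock. Single genes weighed heavily in them: Lpl and Dcn stood at 1112 and 978 CPM in CD mock and at 2803 and 1678 CPM with SB431542 added. In HFD against CD mock, 8 adipocyte markers were lower and 2 higher. For SB431542 with TGF-b1 against mock, 7 preadipocyte and fibroblast markers were higher and 3 lower. The part of any of these cells in the Sparcl1 values was not tested. In bulk RNA, fewer cells of a type and less RNA per cell cannot be told apart.

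Smoc2, a calcium-binding SPARC relative, was highest in CD mock cells at 104, 106 and 103 CPM. TGF-b1 libraries held 61.4, 58.9 and 58.6 CPM, and libraries with SB431542 added held 73.3, 76.9 and 79.8 CPM, between the other groups of CD cells. The log2 change of SB431542 added against TGF-b1 alone was 0.36 ± 0.04, and 0.62 when libraries were scaled by total counts. HFD mock libraries held 58.5, 56.1 and 53.7 CPM, 1.86-fold below CD mock. The mesothelial sums given above had the order of the Smoc2 group means in undifferentiated cells, and their part in it was not tested. Differentiated cells had the least: 10.1, 12.8 and 11.8 CPM in Itga5-High against 16.6, 19.6 and 18.9 CPM in Itga5-Low. Smoc2 was lower in Itga5-High than in Itga5-Low cells, while Sparc and Sparcl1 were higher, each with no overlap of libraries.

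Osteopontin mRNA was higher in HFD than in CD mock cells, and its differences among the CD groups were smaller. Spp1 stood at 61.3, 57.7 and 57.8 CPM in CD mock, at 49.9, 52.9 and 49.2 CPM with TGF-b1, and at 42.2, 41.5 and 40 CPM with SB431542 added. Each group lay below the one before without overlap, with a log2 change of -0.22 ± 0.04 and then -0.29 ± 0.05. Scaled by total counts these were -0.37 and -0.04. HFD mock libraries held 375, 385 and 373 CPM, 6.41-fold above CD mock. Itga5-High cells held 967, 974 and 995 CPM and Itga5-Low cells 859, 833 and 849 CPM, the highest levels of the series.

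Macrophages are a known source of osteopontin and of TGFBI. Their markers were higher in HFD than in CD mock cells for 14 of 14 genes, beside 27.1% of all genes tested. The markers summed to between 1251 and 1270 CPM in CD mock and between 3870 and 3906 CPM in HFD mock, the direction of Spp1 and Tgfbi. In the group with SB431542 added the sum was between 2595 and 2621 CPM, where Spp1 and Tgfbi had their lowest group means. Gpnmb alone stood at 1463 CPM there. Gpnmb and Mrc1 stood above HFD mock in that group. All other macrophage markers stood below it, such as Adgre1 at 37.2 against 116 CPM and Ptprc at 24 against 66.6 CPM. In differentiated cells, with a sum of 247 to 332 CPM and Fcgr1 and Ptprc at 0, Spp1 was at its highest. Most of that sum was the 1 gene Gpnmb, at 282 CPM in Itga5-High and 228 CPM in Itga5-Low. The part of macrophages in the HFD values was not tested.

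**Figure D2:**
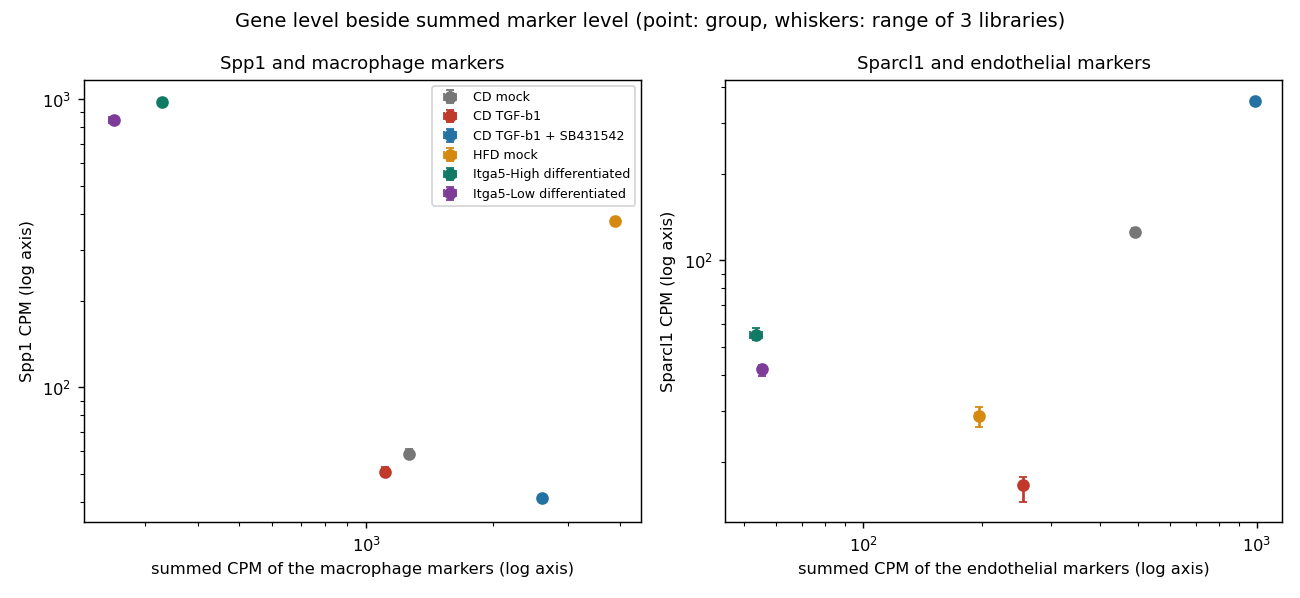
Spp1 CPM against summed macrophage markers, and Sparcl1 CPM against summed endothelial markers, on log axes. Each point is a group mean with the range of its 3 libraries. The differentiated groups hold 847 and 979 CPM of Spp1 at the lowest macrophage sums, which are mostly Gpnmb there. Sparcl1 is highest, at 357 CPM, where the endothelial sum is highest.

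Cilp, a secreted protein of cartilage and heart that can bind TGF-b1, had the widest span of the 9 over the TGF-b groups. CD mock libraries held 14.4, 14.9 and 14.7 CPM, and TGF-b1 libraries 63.9, 69.7 and 68.1 CPM. With SB431542 added the libraries held 0.721, 1.25 and 0.692 CPM, on 10, 17 and 9 counts. The groups did not overlap: Cilp was 4.57-fold higher with TGF-b1 than in mock, and 74.8-fold lower with the inhibitor than with TGF-b1 alone (log2 change -6.23 ± 0.11 SE). HFD mock lay 1.23-fold below CD mock, at 11.7, 13.1 and 11.2 CPM. In differentiated cells the libraries held 43.7, 46.7 and 45.8 CPM in Itga5-High and 427, 416 and 427 CPM in Itga5-Low, a 9.35-fold difference.

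Comp, a pentamer of the thrombospondin family found in cartilage and tendon, was at the edge of detection in undifferentiated CD cells. Its counts per library were 4, 2 and 2 in mock, 3, 3 and 8 with TGF-b1, and 4, 1 and 4 with SB431542 added, and these groups overlapped. HFD mock libraries held 14, 16 and 24 counts, or 0.996, 1.31 and 1.69 CPM, above all CD libraries. Against CD mock this was a 5.97-fold difference on 54 counts against 8 in all (log2 change 2.58 ± 0.49). Differentiated cells held 32.6, 33.4 and 32.9 CPM in Itga5-High and 155, 162 and 153 CPM in Itga5-Low. Of the 9 genes, Comp and Cilp differed most between the sorted groups, both lower in Itga5-High, with log2 changes of -2.25 ± 0.04 and -3.23 ± 0.03.

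Counted over the 9 genes, TGF-b1 against mock gave 8 calls by edgeR's quasi-likelihood test, 4 higher and 4 lower, where 67.6% of all 14078 genes tested were called (33.4% higher and 34.2% lower). TGF-b1 with SB431542 against TGF-b1 gave 8, with 2 higher and 6 lower, beside 79.7% of all genes (41.4% and 38.3%). TGF-b1 with SB431542 against mock gave 8, with 1 higher and 7 lower, beside 61% of all genes (30.6% and 30.4%). Comp was the gene not called in these 3. HFD against CD mock gave 9, with 5 higher and 4 lower, beside 53.7% of all genes (27.1% and 26.6%). Comp, among the higher, had passed the filter on low counts only through HFD mock. Itga5-High against Itga5-Low gave 9, with 5 higher and 4 lower, beside 53.5% of 13468 genes (27% and 26.5%). Under scaling by total counts, the higher genes made up 31.4%, 70%, 67.7% and 33.7% of all calls in the comparisons of undifferentiated cells, against 49.4%, 52%, 50.1% and 50.5% as reported. The libraries of the groups compared did not overlap for 8, 8, 8, 9 and 9 of the genes in that order, beside 69.4%, 80.2%, 64%, 58% and 58.2% of all genes. Nothing is read from these counts, since the genes were chosen on the same values and most genes were called.

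**Figure D3:**
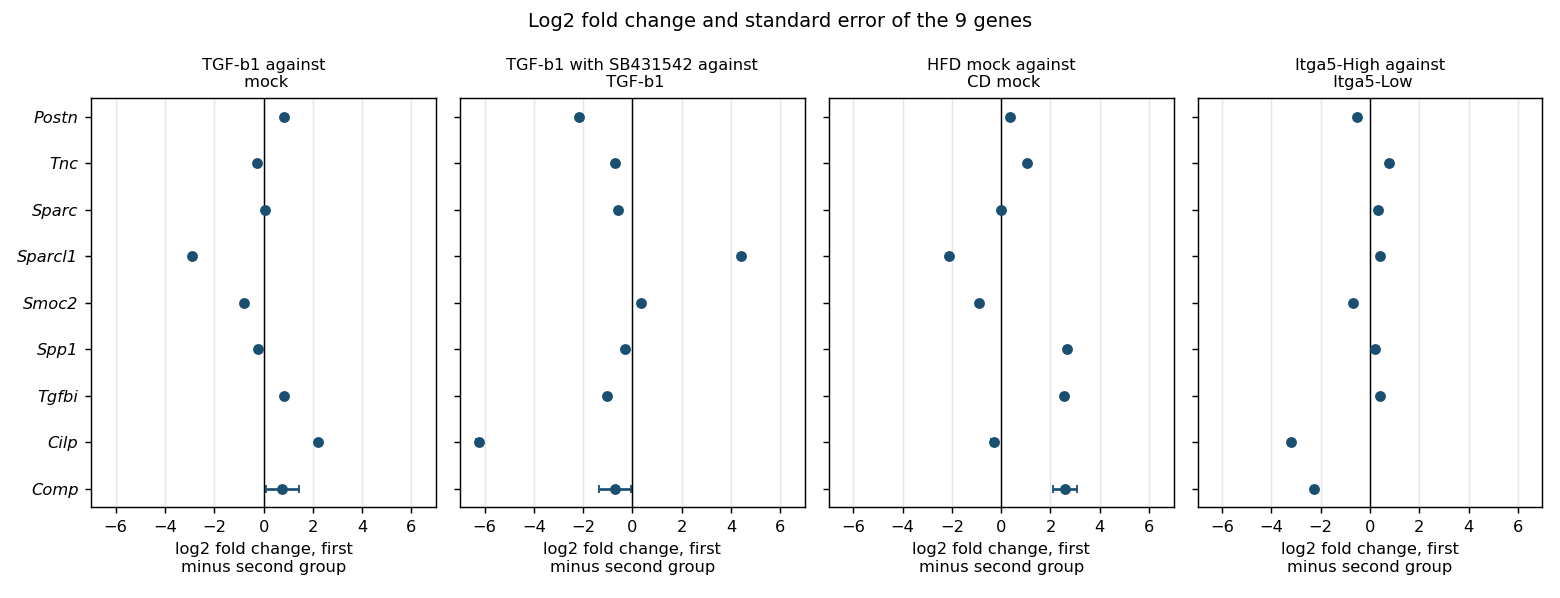
Log2 fold change (first minus second group) of the 9 genes in 4 comparisons, with standard errors, most of them smaller than the points. Cilp has the lowest value, -6.23, and Sparcl1 the highest, 4.42, both for TGF-b1 with SB431542 against TGF-b1; the comparisons within CD cells share their libraries.

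The division of a gene's reads between its transcripts was not used in choosing the genes, and it was tested with edgeR's diffSpliceDGE for the 7 genes with several transcripts tested. Tnc and Postn changed, and Sparc, Sparcl1, Spp1, Tgfbi and Cilp were not called in any of the 5 comparisons. The Tnc transcripts differ in exons of 273 bases, each of which encodes a fibronectin type III repeat in the middle of the protein. The RefSeq transcript with all 6 of these exons (NM_001369211) is 1638 bases longer than the shortest (NM_001369214), which is the length of the 6 exons together. Position by position, the 6 exons were between 41% and 80.2% identical. Exons 1 and 3 in transcript order are the pair with the highest identity, and they are shown with the bases that differ between them in capitals. Exon 5, which the transcript NM_011607 lacks, is shown beside them. The content of NM_001369213, 783 bases longer than the shortest, could not be settled from its length. The exons lie within the coding sequence on the minus strand of GRCm38 (GENCODE M21) and are written in the direction of transcription.
Tnc repeat exon 1 (chr4:64000698-64000970): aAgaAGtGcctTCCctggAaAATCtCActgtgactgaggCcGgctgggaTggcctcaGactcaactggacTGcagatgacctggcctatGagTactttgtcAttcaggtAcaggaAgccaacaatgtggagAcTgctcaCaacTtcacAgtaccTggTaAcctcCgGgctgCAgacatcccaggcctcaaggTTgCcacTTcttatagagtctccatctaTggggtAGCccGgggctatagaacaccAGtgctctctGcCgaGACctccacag
Tnc repeat exon 3 (chr4:63995541-63995813): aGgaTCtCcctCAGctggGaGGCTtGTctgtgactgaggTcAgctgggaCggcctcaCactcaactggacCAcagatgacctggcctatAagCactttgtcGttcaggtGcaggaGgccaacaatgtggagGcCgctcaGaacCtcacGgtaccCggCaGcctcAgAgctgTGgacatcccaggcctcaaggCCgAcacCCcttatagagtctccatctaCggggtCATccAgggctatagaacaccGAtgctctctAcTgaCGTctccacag
Tnc repeat exon 5 (chr4:63984460-63984732): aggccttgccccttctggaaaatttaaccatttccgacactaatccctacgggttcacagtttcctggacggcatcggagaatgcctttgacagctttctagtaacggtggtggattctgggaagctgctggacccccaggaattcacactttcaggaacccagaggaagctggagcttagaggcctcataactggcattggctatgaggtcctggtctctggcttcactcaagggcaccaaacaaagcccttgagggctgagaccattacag

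The shortest Tnc form, without these exons, held 70.5%, 71% and 70.5% of Tnc counts in CD mock libraries. With TGF-b1 it held 46.1%, 40.3% and 42.4%, and with SB431542 added 64%, 63% and 58.3%. Its share was lower in all 3 TGF-b1 libraries than in any mock library, and lay between with the inhibitor added. The test does not hold the error of dividing short reads among transcripts. The usage test gave Tnc an adjusted p of 1.84e-16 for TGF-b1 against mock, where 4.99% of 5956 genes were called, and 1.68e-10 for SB431542 added against TGF-b1, where 10% were called. TGF-b1 with SB431542 still differed from mock at an adjusted p of 0.00184 (3.12% of genes called). These p-values are for the Tnc gene as a whole. Tested by itself, the short form had an adjusted p of 1.33e-09 for TGF-b1 against mock and 2.68e-06 for SB431542 added. Its p of 0.434 for SB431542 with TGF-b1 against mock was not a call (edgeR diffSpliceDGE).

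HFD mock cells held the short form at 43.4%, 44.3% and 40.4%, below all CD mock libraries. The adjusted p was 6.4e-10 for the short form and 2.5e-17 for Tnc as a whole (edgeR diffSpliceDGE, where 5.91% of genes were called). This comparison and that of TGF-b1 share the CD mock libraries. The transcripts with the largest relative gain in HFD cells were NM_001369212, from 2.11% ± 0.76 to 6.39% ± 0.39 (SD, n = 3), and NM_011607, which lacks repeat exon 5, from 7.39% ± 0.26 to 18.3% ± 1.89. In differentiated cells Tnc usage as a whole differed between the sorted groups (adjusted p of 0.000242, edgeR diffSpliceDGE, where 3.73% of 5581 genes were called). The transcript called there was NM_001369213, at 19.1%, 20.8% and 20.4% of Tnc counts in Itga5-High against 15.7%, 16.1% and 13.7% in Itga5-Low (adjusted p of 0.00135, edgeR diffSpliceDGE). The short form held 71.7%, 71.9% and 71% in Itga5-High and 77.3%, 76.9% and 78.1% in Itga5-Low and was not called by itself, with an adjusted p of 0.624 (edgeR diffSpliceDGE).

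Set beside total abundance, the longer Tnc transcripts and the short one went opposite ways with TGF-b1. The longer forms together stood at 119 ± 0.987 CPM in CD mock and 192 ± 9.07 CPM with TGF-b1 (SD, n = 3), 1.62-fold higher, while the short form stood at 286 ± 1.45 and 145 ± 10.9 CPM, 1.98-fold lower. With SB431542 added, the longer forms stood at 80.1 ± 6.96 CPM and the short form at 129 ± 5.62 CPM. In HFD mock cells the longer forms were 4.06-fold and the short form 1.26-fold above CD mock.

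**Figure D4:**
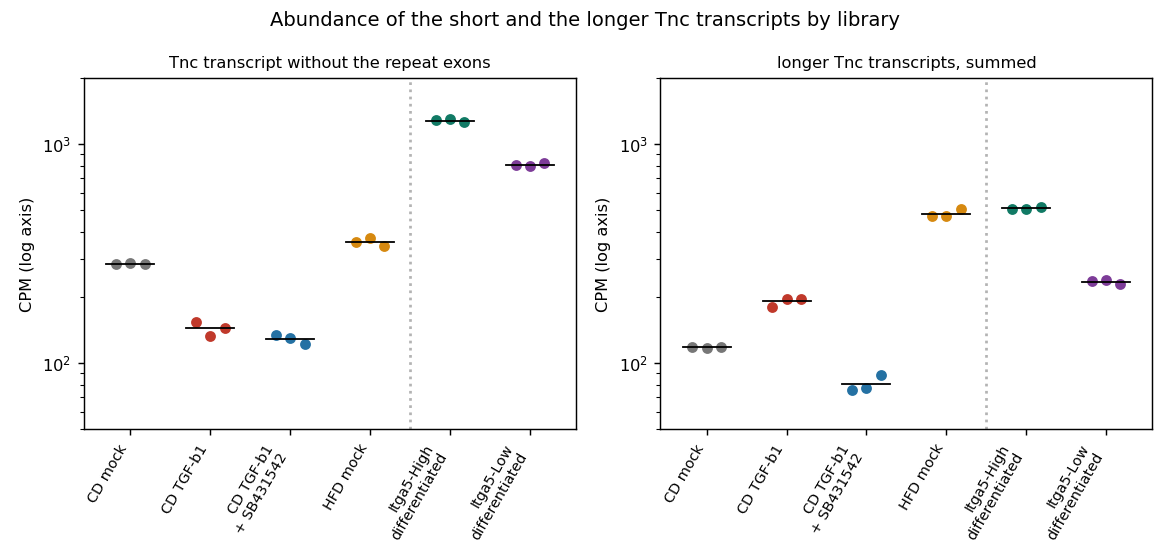
CPM (log axis) of the Tnc transcript without 273-base exons and of the longer Tnc transcripts summed, in all 18 libraries, with bars at group means. From CD mock to TGF-b1 the short form goes from 286 to 145 CPM while the longer forms go from 119 to 192 CPM.

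Periostin transcripts differ near the end of the coding sequence in exons of 81, 78 and 84 bases, a region known to vary by tissue. The 3 exons are shown because the shares below count them, and they lie in the coding sequence on the plus strand of GRCm38 (GENCODE M21).
Postn 81-base exon (chr3:54380412-54380492): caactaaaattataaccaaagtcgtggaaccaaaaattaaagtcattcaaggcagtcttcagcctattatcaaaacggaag
Postn 78-base exon (chr3:54385208-54385285): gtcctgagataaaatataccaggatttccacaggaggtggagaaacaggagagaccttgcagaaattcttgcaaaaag
Postn 84-base exon (chr3:54385671-54385754): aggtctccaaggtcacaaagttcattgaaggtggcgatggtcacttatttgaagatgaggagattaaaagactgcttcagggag

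Lengths of the deposited transcripts assign the 84-base exon to NM_015784 and the 81-base exon to NM_001198765 and NM_001313898, and the most used form, NM_001198766, lacks both. The transcript NM_001368678, at most 1.15% of Postn in any group, could not be assigned and was left out. The 84-base exon was in 13.4%, 13.3% and 13.2% of Postn counts in CD mock, 19.9%, 18.6% and 19% with TGF-b1, and 10.1%, 9.68% and 12.7% with SB431542 added. All TGF-b1 libraries lay above all mock libraries, and those lay above all libraries with the inhibitor. Postn usage changed with an adjusted p of 2.26e-08 for TGF-b1 against mock and 7.54e-14 for SB431542 added against TGF-b1 (edgeR diffSpliceDGE). The difference between TGF-b1 with SB431542 and mock had an adjusted p of 0.0267 (edgeR diffSpliceDGE). It rose to 0.0787 with the replicate number as a block and to 0.471 with limma's voom and diffSplice. It rose to between 0.0624 and 0.267 when each of 5 libraries was left out in turn (CD mock 1, 2 and 3, and SB431542 1 and 2). Without SB431542 3 it fell to 3.43e-05 (edgeR diffSpliceDGE), so the call depended on single libraries.

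No shift of Postn usage with diet was detected: HFD mock cells held the 84-base exon at 13.4% ± 0.704 against 13.3% ± 0.0728 in CD mock, with an adjusted p of 0.995 (edgeR diffSpliceDGE). Whether Tnc and Postn differ in this was not tested. In the sorted cells Postn usage differed with an adjusted p of 3.18e-06 (edgeR diffSpliceDGE). There the share of the 81-base exon was 16.2%, 17.1% and 16.7% in Itga5-High and 19.2%, 20.4% and 19.5% in Itga5-Low. The 78-base exon was in between 83.5% and 85.1% of Postn counts in all 6 group means.

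**Figure D5:**
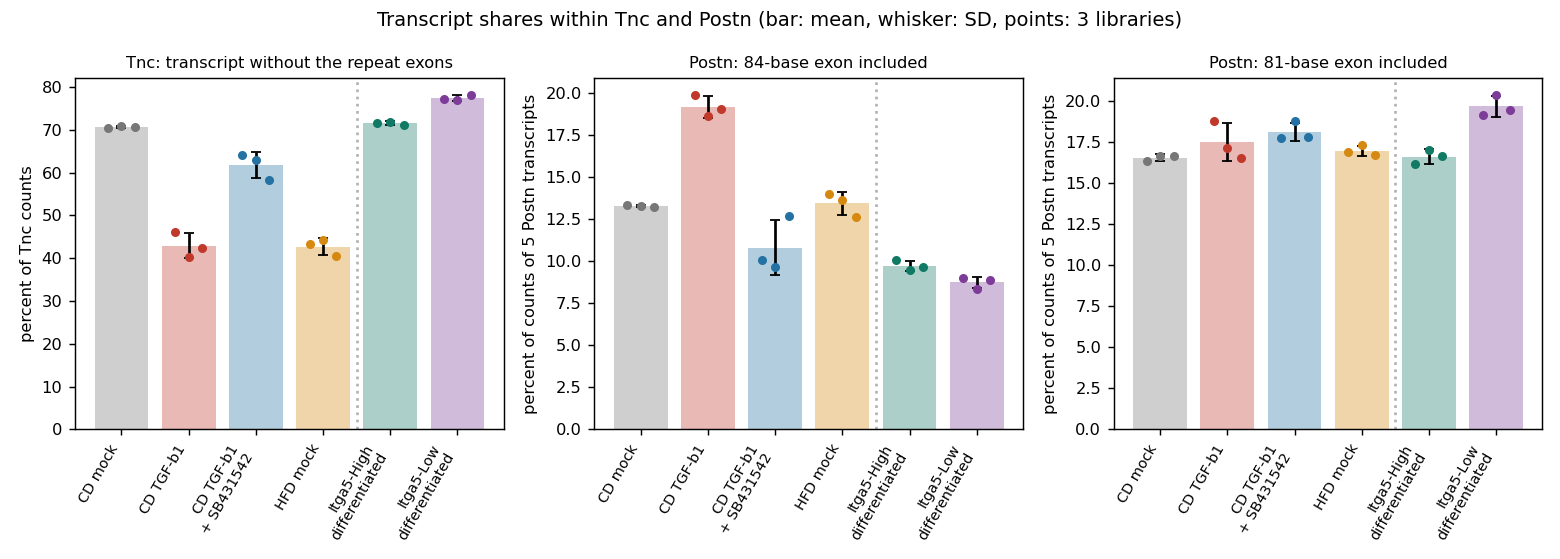
Percent of counts from the Tnc transcript without 273-base exons, and from Postn transcripts with the 84-base and with the 81-base exon, in all 18 libraries (points) with mean and SD. The Tnc short form drops to 42.9% with TGF-b1 and 42.7% in HFD mock, and the Postn 84-base exon peaks at 19.2% with TGF-b1.

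The 2 Sparc transcripts differ by 3 bases at the start of an exon, shown in capitals, which NM_009242 holds and NM_001290817 does not. The exon is coding, on the minus strand.
Sparc 60-base exon (chr11:55407220-55407279): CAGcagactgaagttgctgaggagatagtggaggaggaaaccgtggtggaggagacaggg

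The longer choice held between 66.5% and 67.4% of Sparc counts in the undifferentiated groups, 62.6% ± 0.541 in Itga5-High and 63.8% ± 0.451 in Itga5-Low. Adjusted p-values of Sparc usage ran from 0.264 to 0.999 over the comparisons (edgeR diffSpliceDGE). These shares rest on 68250 to 174016 Sparc counts per library, as group means. The most used Spp1 transcripts, NM_009263 and NM_001204203, differ by 3 bases in length. Over the group means NM_009263 held between 37.1% and 46.2% and NM_001204203 between 29.5% and 35% of Spp1 counts, with SDs of up to 9.42 percentage points for NM_001204203.

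Promoter sequence was available from RefSeq (GRCm38.p6) for 6 of the 9 genes, in 9 windows. The 250 bases before the start site were searched on both strands for short motifs. The heptamer TATATAA, typical of a core promoter, stood in a window of Postn, Tnc and Cilp, 28, 29 and 30 bases before the start, and in 3.04% of all 32851 windows. The 100 bases before these starts are shown with that motif in capitals, because Postn and Cilp lay higher with TGF-b1 and lower with SB431542 while Tnc did not follow them.
Postn (chr3:54361007-54361106, plus strand): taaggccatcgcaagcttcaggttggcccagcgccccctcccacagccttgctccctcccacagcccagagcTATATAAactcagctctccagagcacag
Tnc (chr4:64046937-64047036, minus strand): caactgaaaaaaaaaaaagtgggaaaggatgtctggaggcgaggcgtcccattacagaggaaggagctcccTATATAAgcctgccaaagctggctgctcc
Cilp (chr9:65265080-65265179, plus strand): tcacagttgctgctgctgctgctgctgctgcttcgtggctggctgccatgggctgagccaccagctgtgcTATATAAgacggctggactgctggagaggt

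The Smad element CAGACA stood in a window of Sparc, Spp1 and Tnc and in 17.1% of all windows. The Smad palindrome GTCTAGAC, the AP-1 letters TGANTCA and the TEAD letters GGAATG stood in no window of the 6 genes, and in 0.167%, 6.75% and 12.6% of all windows. CCAAT stood in a window of Spp1 and in 33.8% of all windows. These are matches of letters only, and the motifs were picked with the members' changes known, TATATAA after these sequences had been read.

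Other matricellular genes, from a list of 27 with 17 tested, moved in both directions with TGF-b1. The lists were chosen with earlier results of these data known, and their counts stand beside the shares of all genes called that are given above. Of the 17, 9 rose and 7 fell, with a median log2 change of 0.31 beside -0.02 over all genes tested. The thrombospondin Thbs1, which can activate latent TGF-b, rose 3.46-fold (2465 to 8532 CPM), and Ccn2, a classical TGF-b target, rose 3.37-fold (1179 to 3970 CPM). Tnxb, a tenascin of loose connective tissue, fell 11.9-fold, from 123 to 10.3 CPM. With SB431542 added, 7 rose and 10 fell against TGF-b1 alone (median log2 change -1.36 beside 0.04). Ccn4 fell 33.6-fold and Ccn2 8.02-fold, and Tnxb rose 31.2-fold. Tnxb, like Sparcl1, thus stood lower with TGF-b1 and above mock with the inhibitor, at 322 CPM.

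Against mock, cells with TGF-b1 and SB431542 had 6 of the 17 genes higher and 10 lower. Ccn4 and Ccn5 fell 11.7-fold and 8.52-fold, and Smoc1, the closest relative of Smoc2, rose 3.7-fold, from 9.88 to 36.6 CPM. In HFD against CD mock 11 rose and 5 fell (median log2 change 0.42 beside -0.01). Ccn5 rose 3.54-fold, while Tnxb and Spock2, a SPARC-related proteoglycan, fell 3.66-fold and 3.32-fold. In Itga5-High against Itga5-Low, 6 of 19 rose and 9 fell. Ccn3 fell 3.39-fold and Thbs3 1.7-fold, and Lgals3, the galectin of many macrophages and fibroblasts, rose 1.89-fold. The list's counts under scaling by total counts were 9 and 7, 7 and 10, 7 and 10, 10 and 5, and 6 and 10 in the same order of comparisons.

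Receptors of these proteins, 24 tested of 26, split about evenly with TGF-b1, with 10 higher and 11 lower. Itga5, a fibronectin receptor subunit and the marker of the sort, rose 3.46-fold with TGF-b1 (376 ± 6.62 to 1299 ± 5.02 CPM) and fell 8.36-fold with SB431542 added. Itgb8, whose integrin activates latent TGF-b, fell 34.8-fold and Cd36, a thrombospondin receptor, 4.29-fold, and with the inhibitor added they rose 43.6-fold and 12.5-fold. SB431542 added gave 12 higher and 10 lower against TGF-b1 alone, and 11 higher and 10 lower against mock, where Itgb5 fell 2.85-fold. HFD gave 14 higher and 8 lower: Itga4 and Stab1, a scavenger receptor for SPARC, rose 5.05-fold and 3.75-fold, and Itgb8 fell 3.15-fold. Itga4 is also a gene of leukocytes and Stab1 of macrophages, whose 14 markers were all higher in HFD, and their part in this was not tested. The sorted groups differed in 13 higher and 7 lower of 25, with Sdc1 and Cd44 1.87-fold and 1.48-fold higher and Itga1 1.88-fold lower in Itga5-High. Itga5 itself was 1.43-fold higher in Itga5-High after differentiation, at 472 ± 8.82 against 329 ± 4.68 CPM.

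Matrix partners, 18 tested, gave 9 higher and 9 lower with TGF-b1. Col6a1 and Col6a2, chains of collagen VI, fell 9.43-fold and 7.64-fold and Dcn, the proteoglycan decorin, 5.95-fold. With SB431542 added to TGF-b1, Lox, which crosslinks collagen, fell 26.7-fold and Col12a1 10.5-fold, and Col6a1 rose 10.2-fold. Over the list 7 rose and 10 fell; against mock 4 rose and 13 fell, among them Lox (11-fold), Col1a1 (4.32-fold) and Col12a1 (4.06-fold). HFD gave 12 higher and 6 lower, with Col5a1 1.98-fold higher and Eln and Dcn 3.67-fold and 2.3-fold lower. In the sorted cells 10 of 17 were higher and 7 lower in Itga5-High, and Eln, Dcn and Fn1, the fibronectin that tenascin C and periostin bind, fell 2.23-fold, 1.61-fold and 1.3-fold.

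Under scaling by total counts, the list medians changed sign for receptors, matrix partners and tendon genes with TGF-b1 (0.01 to -0.14, 0.1 to -0.05 and 0.11 to -0.04). They also did for receptors and tendon genes in SB431542 with TGF-b1 against mock (-0.08 to 0.03 and -0.01 to 0.1), and for proteases and tendon genes in HFD (0.07 to -0.01 and 0.05 to -0.03). DESeq2 tested more genes of some lists. With SB431542 added against TGF-b1 its median was -0.5 over 22 other matricellular genes. For tendon genes it was -0.51 over 15, against 0.11 over 12 as reported. Between the sorted groups it called 6 other matricellular genes higher and 6 lower.

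Proteases that cut matricellular proteins gave 7 higher and 3 lower of 11 with TGF-b1, and 4 higher and 6 lower when SB431542 was added. Tll1, a relative of the procollagen protease Bmp1, rose 7.05-fold and then fell 17.7-fold, while the stromelysin Mmp3, which cuts SPARC and osteopontin, fell 23.1-fold and then rose 44.5-fold. Adamts7, a protease of COMP, fell 6.27-fold with TGF-b1, and Mmp12 rose 12.8-fold with the inhibitor. With the inhibitor added, 13 macrophage markers were higher and 1 lower, where 41.4% of all genes were higher. Their part in the Mmp12 value was not tested. In HFD cells 6 were higher and 5 lower, with Mmp12, the macrophage elastase, 3.27-fold higher and Mmp3 and Tll1 4.04-fold and 2.16-fold lower; the macrophage markers given above moved with Mmp12, and their part in it was not tested. Against mock, SB431542 with TGF-b1 gave 6 higher and 5 lower, with Mmp12 2.13-fold and Mmp3 1.93-fold higher and Tll1 2.51-fold lower. All 14 macrophage markers were higher there too, beside 30.6% of all genes, and their part in Mmp12 was not tested. In Itga5-High cells 4 of 10 were higher and 2 lower: Bmp1 rose 1.25-fold, and Mmp3 and Mmp2 fell 1.95-fold and 1.31-fold.

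Tendon and cartilage genes, the tissues for which Comp and Cilp were named, had 12 members tested in undifferentiated and 10 in differentiated cells. With TGF-b1, 5 rose and 5 fell, and the collagen chain Col11a1 rose 22.1-fold, from 5.26 to 116 CPM. Prg4, the joint lubricant, fell 7.83-fold, and Egr1, a transcription factor of tendon and of growth signals, fell 1.63-fold. SB431542 added gave 5 higher and 5 lower: Col11a1 fell from 116 to 0.518 CPM, where Cilp stood at 67.2 and 0.888 CPM, and Prg4 and the cartilage factor Sox9 rose 7.6-fold and 2.82-fold. Against mock, 4 rose and 4 fell, with Sox9 2.22-fold, Fmod 1.76-fold and Egr1 1.36-fold higher. HFD gave 4 higher and 5 lower, with Fmod 1.51-fold and Egr2 1.28-fold higher and Prg4 4.5-fold lower. In the sorted cells 2 rose and 5 fell; Col11a1 was 2.13-fold and Prg4 1.16-fold lower in Itga5-High, the direction of Cilp and Comp, and Egr2 was 1.17-fold higher.

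The genes whose profile over the 6 group means was most like each member were found by the root mean square difference of centred log2(CPM + 1), among 9276 genes with at least 10 CPM in the highest group of each table. This is a description over 6 groups of 2 separately scaled tables. The measure is not scaled by a gene's own spread, so distances tend to be larger for genes with a wide span. Sparc had the closest neighbours, Trp53i13 at 0.08 and P4ha1, a subunit of collagen prolyl hydroxylase, at 0.08. Smoc2 was closest to Mast4 (0.17) and Plxna4 (0.17), Tnc to Vgf (0.17) and the receptor kinase Ret (0.26), and Postn to Galnt17 (0.2) and Pdgfrl (0.37). Sparcl1 was closest to Cdh13 (0.24), an adhesion protein of vessels, and Oasl2 (0.33). Spp1 was closest to Greb1 (0.3) and Pdk4 (0.77), and Tgfbi to Lmod1 (0.41) and Siglecg (0.41).

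For Cilp, whose group means spanned 477-fold, the nearest were Itgbl1 at 0.8 and Mfap4, a microfibril protein, at 1.03. Comp, itself under 10 CPM in undifferentiated cells, was nearest to Acsl1 (0.9) and Ndufa4l2 (1.13), on values that for Comp hold few counts. Within the set, Tnc and Sparc were the closest pair (0.69), followed by Postn and Tnc (0.71), and Comp and Smoc2 were the farthest apart (3.77). Tnc and Sparc still went opposite ways in HFD against CD mock (log2 change 1.06 and -0.03). The span between the lowest and highest group mean was 708-fold for Comp and 477-fold for Cilp, 23.7-fold for Spp1 and 21.5-fold for Sparcl1. It was 14.2-fold for Postn, 9.01-fold for Smoc2, 8.56-fold for Tnc and 6.63-fold for Tgfbi. Postn, Tnc, Sparc, Spp1, Tgfbi and Cilp had their lowest group mean with TGF-b1 and SB431542, Sparcl1 with TGF-b1 alone, Comp in CD mock and Smoc2 in Itga5-High.

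Sparcl1 and Spp1 lie close together on chromosome 5 (mm10), 321 kb apart on opposite strands, at chr5:104079109-104114088 and chr5:104435111-104441053. Their changes were not alike: with TGF-b1 they stood 7.48-fold and 1.16-fold below mock, and in HFD cells Sparcl1 was 4.35-fold lower and Spp1 6.41-fold higher. The other members lie on separate chromosomes: Postn on 3, Tnc on 4, Comp on 8, Cilp on 9, Sparc on 11, Tgfbi on 13 and Smoc2 on 17.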

How the data were processed

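Poly(A) RNA of mouse primary preadipocytes was sequenced in 18 libraries. The authors used fastp, STAR and featureCounts with build mm10, per the submitters' processing notes. Versions, strandedness and how reads were divided among transcripts are unknown here. The authors deposited 2 tables of expected counts (estimated counts) per RefSeq transcript, with coordinates and length, not scaled to a common depth. The end coordinate was taken as exclusive and lowered by 1 base.

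Transcript values were summed per gene symbol, rounded to whole counts and tested with edgeR 4.0.16 (R 4.3.3) by the quasi-likelihood test, after filterByExpr and with TMM scaling within each table. The 12 undifferentiated libraries were fitted together and the 6 differentiated ones separately. Benjamini-Hochberg adjusted p-values under 0.05 over all genes tested were called. Standard errors came from a fit with dispersions kept at 0.0001 or above. Transcript usage was tested with diffSpliceDGE. Alternatives used DESeq2 1.42.0, limma 3.58.1, other scalings and filters, a replicate block, and each library left out. Tables were handled with Python 3.11.15, and the fits were tested on simulated data. Depth limits low genes, here Comp and, with SB431542, Cilp.

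The members and lists were chosen with earlier results of these data known. Named genes were the 9 members, per comparison the 3 called genes with the largest absolute log2 change in each list, given 10 CPM or more in the higher group, Itga5 and Col1a1 as references, and for each member the 2 genes most alike in profile. Exon sequences came from GENCODE M21 (GRCm38) and promoters from RefSeq (GRCm38.p6).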

Additional observations from a re-analysis of the deposited data

How the results depend on the processing

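Scaling by total counts in place of TMM moved the number of genes called higher with TGF-b1 against mock from 4705 to 3068, of genes called lower with SB431542 added against TGF-b1 from 5388 to 3446, and of genes called lower with SB431542 and TGF-b1 against mock from 4284 to 2840. It moved the median log2 change of all genes from -0.02 to -0.16, from 0.04 to 0.29, from 0.01 to 0.12 and, for HFD against CD mock, from -0.01 to -0.09. Under it the log2 change of Sparc with TGF-b1 reversed to -0.0889. No other called change of a member reversed its direction among the alternatives run. The log2 change of Comp for SB431542 with TGF-b1 against mock, not called at 0.04, ran from -0.23 to 0.49 with 1 library left out.

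No pairing by replicate number was seen: deviations of same-numbered libraries correlated between -0.02 and 0.02. In each comparison 0 to 4 libraries matched best with their own number. Libraries of a group differed little beyond sampling noise, so this check could miss a shared mouse or day. The replicate block moved the number of genes with changed usage between Itga5-High and Itga5-Low from 208 to 80, and limma's voom with diffSplice gave 336. Leaving out 1 library gave 116 to 176 such genes (116 without Itga5-Low replicate 2) and, for HFD against CD mock, 232 to 308 against 352 (232 without HFD mock replicate 2); fewer libraries entered these fits. The usage call of Postn for SB431542 with TGF-b1 against mock, with an adjusted p of 0.0267 by edgeR, was lost at 0.471 (voom), 0.0787 (replicate block) and 0.0624 to 0.267 (5 left-out libraries). The cause was not tested for any of these changes. Comp in undifferentiated CD cells rests on 1 to 8 counts per library, and its libraries overlapped among those groups. The 5.97-fold difference between HFD and CD mock rests on 54 counts against 8 and is a description only.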
